A study of Bos taurus with 6 samples.

Results

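The genes described here carry the cyclic AMP signal inside fat cells. They were chosen by symbol in the mRNA count table, as a pair of adenylyl cyclases (ADCY5 and ADCY6), the catalytic and regulatory subunits of protein kinase A or PKA (PRKACA, PRKACB, PRKAR1A, PRKAR2A and PRKAR2B), a pair of phosphodiesterases (PDE3B and PDE4B) and the transcription factor CREB1. All 10 symbols were in the table of 25444 genes, and all 10 had reads in both libraries.

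Intramuscular fat (IMF) had been dissected from the sternomandibularis muscle of male Chinese Qinchuan cattle, slaughtered at 24 months of age. The steers (CM) had been weaned at 3 months and castrated surgically at 6 months, and the bulls (IM) had been weaned at the same age and left intact. Both groups came from 1 sire and received the same diet, so that castration is the named difference between them. RNA of the animals of a group was pooled into 1 library and sequenced on an Ion Proton. The series design gives 6 animals per pool and the sample descriptions give 3.

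In fat cells, noradrenaline and other hormones bind receptors that act through the stimulatory G protein (Gs) on adenylyl cyclase, which makes cyclic AMP. Cyclic AMP releases the catalytic subunits of PKA from the regulatory ones, and PKA then phosphorylates hormone-sensitive lipase and perilipin, so that stored fat is broken down. Receptors that act through the inhibitory G protein (Gi) oppose this step, and phosphodiesterases end the signal by breaking down cyclic AMP. Insulin restrains lipolysis largely through PDE3B, and CREB1 carries the signal to the genome when PKA phosphorylates it.

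The libraries held 12677375 counts in steers and 9868415 counts in bulls. Scaling was by median-of-ratios size factors (1.04 in steers and 0.959 in bulls), and a count divided by its factor is called here a normalised read count. For each gene the libraries were tested against each other by an exact binomial test, and a call needed both an adjusted p under 0.05 and a log2 fold change beyond 1 in either direction. With 1 pooled library per group no spread between animals was available, so that the test compares these libraries and not the conditions. The 95% intervals cover counting error only, and reads are not independent molecules. Without transcript lengths, levels were compared between libraries and not between genes. Of 17752 genes with any read at all, 4.66% were called up in steers and 8.5% were called down.

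Of the 10 genes, 1 was called lower in steers (PRKACB) and 0 were called higher. ADCY5 and PDE4B were also lower in steers, at log2 fold changes of -0.997 and -0.92, and both lay on the near side of the fold threshold. ADCY6, at 0.58, had the highest value of the 10. The 1 call downwards among 10 members lies near the 8.5% of all genes tested. Their log2 fold changes had a median of -0.36 with a prior of 0.5 counts, where all genes tested had a median of 0.01. Below 0 were 7 of 10 members, beside 49.3% of all genes tested.

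**Figure D1:**
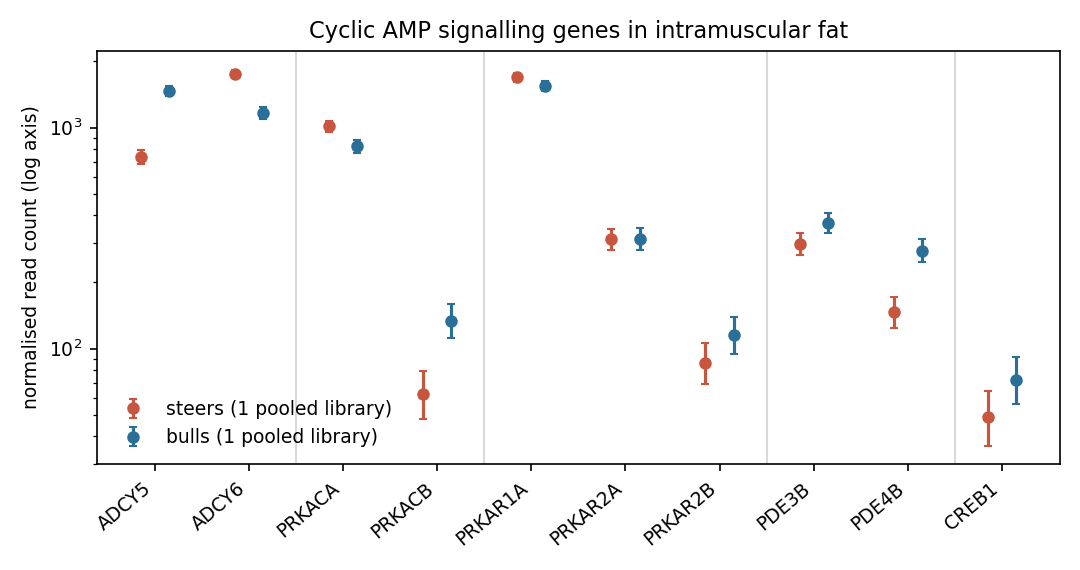
Normalised read counts (vertical log axis) of the 10 genes in the pooled library of steers (red) and of bulls (blue), with exact 95% Poisson intervals that cover counting error only. ADCY5, PRKACB and PDE4B stand lower in steers with intervals that do not overlap, ADCY6 stands higher, and PRKAR2A lies at the same height in both libraries.

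Adenylyl cyclase makes cyclic AMP from ATP, and ADCY5 and ADCY6 are closely related isoforms that calcium inhibits. For ADCY5, 766 reads were counted in steers and 1405 in bulls, which are 734 and 1466 normalised read counts. It was at -0.997 on the log2 scale (95% interval -1.13 to -0.87), a level in bulls 1.996 times that in steers. The exact binomial test gave an adjusted p of 1.84e-54, so that only the fold threshold kept ADCY5 from being called. ADCY6 went the other way, with 1823 counts in steers and 1117 in bulls. Its normalised read counts were 1747 and 1165 and its log2 fold change was 0.58 (0.48 to 0.69). Between the libraries, these isoforms differed in direction by more than counting error. The ratio of ADCY6 to ADCY5 in steers was 2.99 times that in bulls (2.66 to 3.37), a comparison that no scaling of the libraries can move. ADCY6 accounted for 70.4% of the counts of both cyclases in steers (95% binomial interval 68.6 to 72.2) and for 44.3% in bulls (42.3 to 46.3). Their summed counts of 2589 and 2522 differed by -0.08 on the log2 scale (-0.164 to -0.005), or by -0.32 with total counts.

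The catalytic subunits of PKA are the kinase itself, and PRKACA and PRKACB encode its alpha and beta forms. PRKACB had few reads, 65 in steers and 128 in bulls. These are 62.3 and 134 normalised read counts, and PRKACB fell by 1.10 on the log2 scale, with an interval of -1.55 to -0.66 and an adjusted p of 2.13e-06 in the exact binomial test. PRKACB thus passed the fold threshold in its estimate, while its counting interval reached across it. The paper also reported PRKACB as lower in steers by qRT-PCR, an assay that was not examined here. For PRKACA the counts were 1056 and 789, or 1012 and 823 normalised read counts, and the log2 fold change was 0.30 (0.16 to 0.43). PRKACA was not called, and on total-count scaling its value was 0.06. As with the cyclases, the related forms did not move together. The ratio of PRKACB to PRKACA in bulls was 2.64 times that in steers (1.91 to 3.66). PRKACB made up 5.80% of the catalytic counts in steers (4.50 to 7.33) and 14.0% in bulls (11.8 to 16.4). Together, the catalytic subunits summed to 1121 in steers and 917 in bulls and were at 0.17 (0.04 to 0.30), which became -0.07 with total counts. How reads common to these similar coding sequences were assigned is not given in the sources used here.

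The regulatory subunits bind cyclic AMP and hold the catalytic subunits inactive until it arrives. PRKAR1A, the type I form, had 1765 counts in steers and 1483 in bulls. This put it at 0.13 (0.03 to 0.23), and -0.11 on total-count scaling. PRKAR2A, a type II form, had 325 and 301 counts and was at -0.01 (-0.24 to 0.22), the smallest difference of the 10 genes. Both values were small beside those of ADCY5 and PRKACB. PRKAR2B, the type II form that is abundant in adipocytes, had 90 counts in steers and 110 in bulls. The value of -0.41 had an interval of -0.83 to 0.00 and an adjusted p of 0.106 in the exact binomial test. With total counts PRKAR2B was at -0.65 (adjusted p = 0.0053), so that its side of the p threshold depends on the scaling. PRKAR2B took 4.13% of the regulatory counts in steers (3.33 to 5.05) and 5.81% in bulls (4.80 to 6.96), and these intervals overlap. Relative to PRKAR2B, PRKAR1A was 1.45 times higher in steers than in bulls (1.08 to 1.96). The same ratio was 1.32 for PRKAR2A against PRKAR2B (0.947 to 1.84) and 1.10 for PRKAR1A against PRKAR2A (0.925 to 1.31), and both of these intervals hold 1. Summed, the regulatory subunits had 2180 and 1894 counts and were at 0.08 (-0.01 to 0.17), or -0.16 with total counts.

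Phosphodiesterases hydrolyse cyclic AMP, PDE3B at the endoplasmic reticulum and cell membrane of the fat cell and PDE4B in many cells, those of the immune system among them. PDE4B had 153 counts in steers and 266 in bulls, or 147 and 278 normalised read counts. It was at -0.92 on the log2 scale (-1.22 to -0.63), short of the threshold, with an adjusted p of 1.30e-09 in the exact binomial test. PDE3B had 311 and 355 counts, or 298 and 370 normalised read counts, and was at -0.31 (-0.54 to -0.09). Both enzymes were lower in steers in these libraries, PDE4B by more. The ratio of PDE3B to PDE4B in steers was 1.52 times that in bulls (1.18 to 1.97). PDE4B held 33.0% of their joint counts in steers (28.7 to 37.5) and 42.8% in bulls (38.9 to 46.8). Their sum, 464 counts in steers and 621 in bulls, was at -0.54 (-0.72 to -0.37), and at -0.78 with total counts.

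CREB1, the factor that PKA phosphorylates in the nucleus, had the fewest reads of the 10 genes, 51 in steers and 69 in bulls. On the log2 scale it was at -0.56, and the interval of -1.11 to -0.02 reached from past the fold threshold almost to 0. The adjusted p was 0.0834 in the exact binomial test. With total counts CREB1 was at -0.80 (adjusted p = 0.00926), which passed the p threshold and not the fold threshold.

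**Figure D2:**
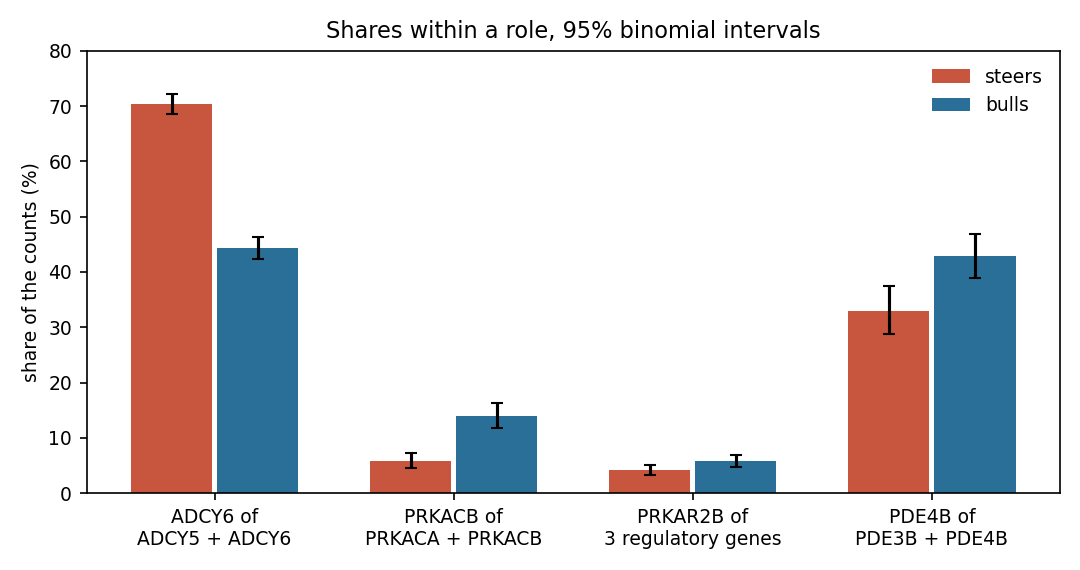
Share of the counts in percent (vertical axis) that a gene took within its role, in steers (red) and bulls (blue), with exact 95% binomial intervals. ADCY6 took 70.4% of both cyclases in steers and 44.3% in bulls, PRKACB 5.80% and 14.0% of the catalytic counts, and PDE4B 33.0% and 42.8%, while the intervals of PRKAR2B overlap.

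The choice of scaling bears on the sign of the small values. With total counts all genes had a median value of -0.23 on the log2 scale, and each gene's value was 0.24 lower than above. The 10 genes most abundant over both libraries held 18.5% of all reads in steers and 12.9% in bulls. On that scale ADCY5 was at -1.24, PDE4B at -1.16 and PRKACB at -1.34, and all 3 were called down, where 11.8% of all genes were, and 0 members were called up, where 3.3% were. ADCY6 stayed above 0 at 0.35, while PRKAR1A changed sign.

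**Figure D3:**
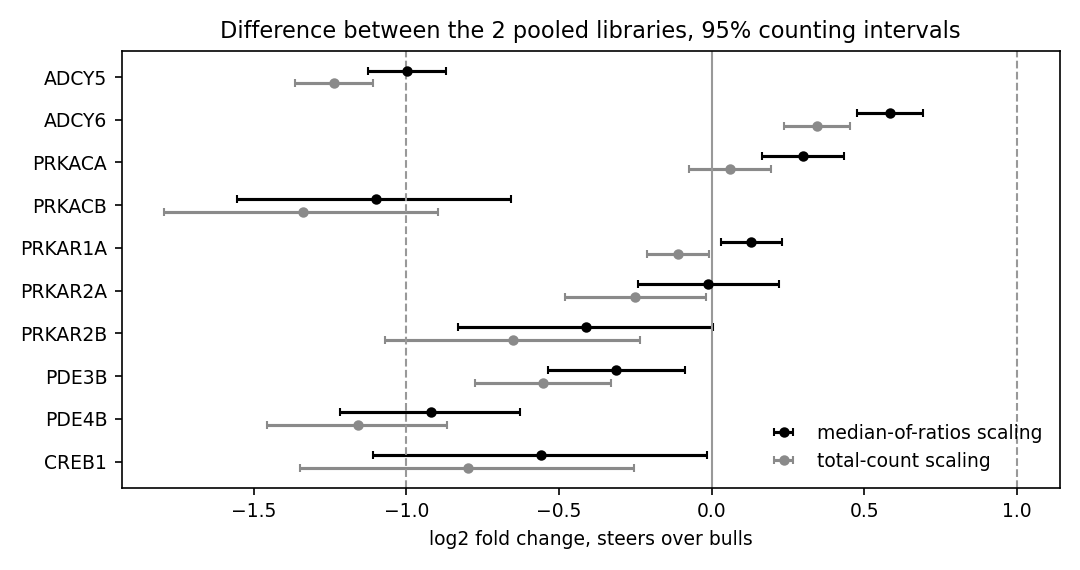
Log2 fold change of steers over bulls (horizontal axis) for the 10 genes, with median-of-ratios scaling in black and total-count scaling in grey. Bars are 95% counting intervals and dashed lines mark the fold threshold of 1 in each direction. Of the black points, that of ADCY5 lies on the lower dashed line and those of PRKACB and PDE4B close to it. The grey points of these genes lie beyond that line, and no gene reaches the upper one.

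The calls also depend on how far pools of animals would differ without castration, which these libraries do not show. An exact test in edgeR with an assumed biological coefficient of variation of 0.1 between pools still called PRKACB (adjusted p = 0.00306), the 1 member called down where 7.04% of all genes were, and 0 members up where 3.84% were. At 0.2 the adjusted p of PRKACB was 0.202, that of ADCY5 0.178 and that of PDE4B 0.303, so that 0 of the 10 genes were called, beside 6.37% of all genes (2.07% up and 4.29% down). At 0.4 again 0 were called, beside 0.817% of all genes (0.293% up and 0.524% down). With the adjusted p of the binomial test alone and no fold threshold, 3 members were higher in steers and 4 lower, beside 20.4% and 18.9% of all genes, 39.3% together. These shares are not matched to the members in depth. They include genes with few reads, for which a counting test can seldom pass the p threshold. The main call also needs the fold threshold, and its shares were not higher among deeper genes. Among 10464 genes with at least 100 counts in both libraries together, a set that includes the members, 3.30% were called up and 6.67% down.

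Genes around the members were described with 13 lists of the pathway, from receptors to lipolysis. They held 162 genes of the table, each counted once, of which 153 had a read in either library. Of these, 13 were called up (8.497%, beside 4.66% of all genes) and 23 were called down (15.03%, beside 8.5%), and their median log2 fold change was -0.12.

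**Figure D4:**
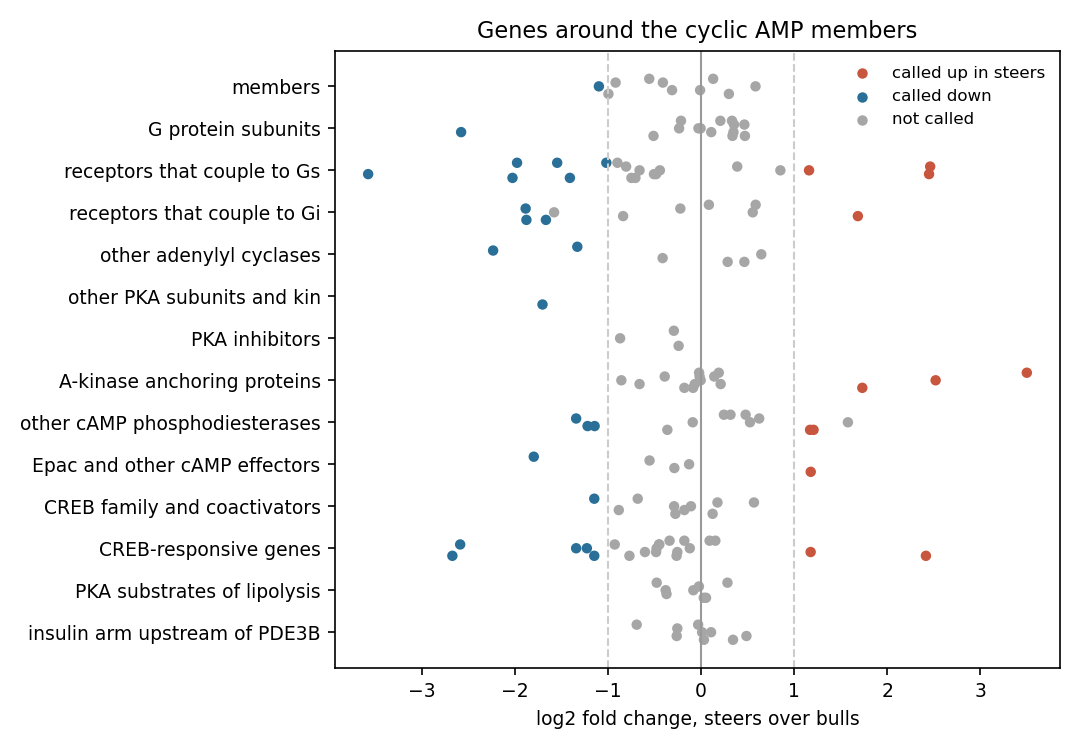
Log2 fold change of steers over bulls (horizontal axis) of the members and of the genes in the 13 pathway lists, 1 point per gene with at least 10 counts together and a count in each library. Red points were called up, blue points down and grey points not at all, and dashed lines mark the fold threshold. Receptor genes spread on both sides, and no gene of the lipolysis and insulin lists was called.

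Receptors open the pathway. Of 29 genes of receptors and receptor partners that act through Gs and had a read, 3 were called up and 7 down. With total counts these were 1 and 9, the calls of MC1R and RAMP2 being lost, and with an assumed coefficient of 0.2 they were 1 and 0. ADRB1, a receptor of noradrenaline, fell with 1 and 11 counts, at -3.58 (-9.01 to -0.80), and ADRB3, the receptor best known from fat cells, had 0 and 2 counts. Both rested on few reads. LHCGR, the receptor of luteinising hormone, rose by 2.45 on the log2 scale (1.76 to 3.21), from 20 counts in bulls to 119 in steers. RAMP2, which partners the receptor of adrenomedullin, had the most counts of the list, 6711 and 2759, and rose by 1.16 (1.10 to 1.22), a value of 0.92 with total counts. CALCRL, the receptor that it partners, was not called and lay below 0, at -0.71 (-1.16 to -0.26) on 70 and 105 counts. The related partner RAMP1 was called down, at -1.41 (-2.29 to -0.59) on 18 and 44 counts. MC1R, a melanocortin receptor, rose on 12 and 2 counts, at 2.46 (0.30 to 5.66). ADCYAP1R1, a receptor of the peptide PACAP, fell on 4 and 15 counts, at -2.03 (-4.08 to -0.38).

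Of 15 genes of receptors that act through Gi and had a read, 2 were called up and 4 down, or 1 and 3 with an assumed coefficient of 0.2. ADRA2C, ADORA1, NPY1R, NPY4R and CNR1 were listed but not found in the table. HCAR1 and HCAR2 are receptors of lactate and of hydroxybutyrate, through which these metabolites restrain lipolysis. HCAR1 had 15 counts in steers against 51 in bulls and fell by 1.89 (interval -2.82 to -1.03). HCAR2 had 21 and 71 counts and fell by 1.88 (-2.66 to -1.16). Both restraining receptors were therefore lower in the library of steers. In the other direction, DRD2, a dopamine receptor, had 40 counts in steers and 0 in bulls, at least 12.3-fold higher when bulls are set to a floor of 3 counts. APLNR, the apelin receptor, rose by 1.69 (0.81 to 2.66) on 49 and 14 counts. S1PR1, with the most counts of the list, was at -0.22 (-0.33 to -0.12).

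The G proteins that link receptors to the cyclases differed less. Of 14 subunit genes, 0 were called up and 1, GNAL, was called down. GNAL encodes a stimulatory alpha subunit known from olfactory neurons and had 4 and 22 counts. GNAS, the stimulatory alpha subunit of most tissues, had 26754 counts in steers against 17810 in bulls and was at 0.46 (0.44 to 0.49). GNAI2, an inhibitory alpha subunit, was at -0.01 (-0.06 to 0.04).

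Among the other adenylyl cyclases, 7 of 8 genes had a read, 0 were called up and 2 down, and 0 in either direction with an assumed coefficient of 0.2. ADCY4 fell by 1.33 (-1.69 to -0.99) from 229 counts in bulls to 99 in steers. ADCY8, a cyclase stimulated by calcium, fell by 2.24 on 6 and 26 counts. ADCY3, with 1208 counts in steers and 709 in bulls, was at 0.65 (0.51 to 0.78) and was not called. With ADCY5 and ADCY6 included, cyclase genes therefore stood on both sides of 0.

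PRKX, a kinase related to the PKA catalytic subunits, fell by 1.71 (-2.20 to -1.24), with 50 counts in steers and 150 in bulls. All 3 genes of PKA inhibitors were below 0 and 0 of them were called. PKIB had the most counts, 251 and 422, and was at -0.87 (-1.10 to -0.64). PKA and its relatives are placed in the cell by anchoring proteins (AKAPs), of which 16 had a read, with 3 called up and 0 down. AKAP1, the anchor at the outer membrane of mitochondria, rose by 1.73 (1.30 to 2.19), from 55 counts in bulls to 199 in steers. AKAP3 and AKAP4, best known from the sheath of the sperm tail, rose on few reads, 25 and 4 counts for AKAP3 and 37 and 3 for AKAP4. AKAP3 was 5.74-fold higher in steers (1.98 to 22.7) and AKAP4 11.3-fold higher (3.59 to 57.4). EZR, which encodes the membrane linker ezrin and had the most counts of the list, was at 0.21 (0.17 to 0.25) and at -0.03 with total counts.

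Of 13 other cyclic AMP phosphodiesterases, 2 were called up and 3 down, and 0 in either direction with an assumed coefficient of 0.2. PDE4D, a relative of PDE4B, had 27 and 63 counts and fell by 1.34 (-2.05 to -0.67). PDE4C fell by 1.22 (-1.84 to -0.62) on 35 and 75 counts, while PDE4A was at 0.24 (0.05 to 0.44). In the PDE4 family, which is selective for cyclic AMP, the values of PDE4B, PDE4C and PDE4D were thus below 0 and that of PDE4A above it. The value of PDE4A was 0.01 with total counts. PDE7B rose by 1.21 (0.86 to 1.56), with 244 counts in steers and 97 in bulls. PDE10A rose by 1.17 (0.69 to 1.67), with 125 and 51 counts. With total counts they were at 0.97 and 0.93, below the threshold. PDE2A, with the most counts of the list, was at -0.36 (-0.53 to -0.20).

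Cyclic AMP also acts without PKA. Of 9 genes of such effectors and of cyclic AMP export with a read, 1 was called up and 1 down, and 0 in either direction with an assumed coefficient of 0.2. ABCC4, an exporter of cyclic nucleotides, rose by 1.18 (0.64 to 1.74) on 101 and 41 counts and was at 0.94 with total counts. POPDC2, a cyclic AMP binding protein of muscle, fell by 1.80 on 5 and 16 counts. RAPGEF3, which encodes the exchange factor Epac1, had 500 and 561 counts and was at -0.29 (-0.47 to -0.11).

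Downstream of PKA, 10 genes of the CREB family, its coactivators and the kinases that restrain them had reads, 0 were called up and 1 was called down, which an assumed coefficient of 0.2 removed. SIK1, a kinase that holds the CREB coactivators in the cytoplasm, fell by 1.15 (-1.37 to -0.93), from 530 counts in bulls to 260 in steers. SIK2 was at -0.89 (-1.04 to -0.74) and SIK3, with the most counts, at 0.57 (0.48 to 0.65). The coactivator CREBBP was at -0.29 (-0.41 to -0.17), and CREM and ATF1, the closest relatives of CREB1, were at -0.18 (-1.05 to 0.69) and 0.12 (-0.15 to 0.40), the latter at -0.12 with total counts.

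Of 23 genes listed as responsive to CREB, 2 were called up, 5 were called down and 18 were below 0, where 49.3% of all genes tested were. With an assumed coefficient of 0.2, 1 was called up and 2 were called down. ATF3, a stress-induced transcription factor, had 62 counts in steers against 364 in bulls and fell by 2.68 (-3.09 to -2.28). RGS2, which shortens G protein signals, fell by 2.59 (-3.57 to -1.73) on 13 and 72 counts. PDE4D and SIK1, given above, are on this list as well, and FOS was the remaining call downwards at -1.23 (-1.29 to -1.17). PCK1, which supplies glycerol phosphate for fat storage, was among the 2 called up. It rose by 2.42 (2.26 to 2.57), from 402 counts in bulls to 2337 in steers. CRISPLD2, a secreted protein gene with the most counts of the list, rose by 1.18 (1.15 to 1.20), a value of 0.94 with total counts.

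At the lipid droplet, 0 of 8 genes of lipolysis and droplet proteins were called. PNPLA2, also listed, was not found in the table and is not covered. LIPE, which encodes hormone-sensitive lipase, had 5234 counts in steers against 4890 in bulls and was at -0.02 (-0.08 to 0.03). PLIN1, the perilipin that PKA phosphorylates, was at -0.38 (-0.44 to -0.32), and CIDEC, with the most counts, at 0.28 (0.24 to 0.33). In the insulin arm that acts on PDE3B, 0 of 9 genes were called, and PIK3R1, with the most counts, was at 0.49 (0.39 to 0.58). AKT1 of this arm was not found in the table.

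IMF holds several cell types, and their marker genes did not stay level between the libraries. In a bulk sample, fewer cells of a type and less RNA per cell cannot be told apart. For the tissue label, 12 of 12 adipocyte genes had reads in both libraries. They summed to 3747 CPM, a unit relative to the library total, in steers and 4395 in bulls, and after median-of-ratios scaling the sums differed by 0.01 on the log2 scale. The members of this list went both ways, with CIDEA (2.75), GPD1 (1.42) and LPL (1.67) called up and FABP4 (-1.06) called down, and ADIPOQ was at -0.68. Of the myeloid list 11 of 13 genes were called down, and its sum was 2700 CPM in steers and 8842 in bulls. Of the T lymphocyte list 13 of 14 were called down, with 15.4 and 124 CPM, and of the B lymphocyte list 4 of 7 with reads, with 3.00 and 19.1. CD3G and GZMB of the T lymphocyte list were at 0 in steers, as was PAX5 of the B lymphocyte list, and CD79B and MS4A1 of that list were at 0 in both libraries.

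Skeletal muscle genes summed to 2731 CPM in steers and 4744 in bulls, with 1 of 14 called up and 2 down. Smooth muscle and pericyte genes summed to 1656 and 2513, with 1 of 8 called down, and endothelial genes to 1195 and 1391, with 0 of 11 called. Fibroblast and matrix genes were at 139559 and 84901 CPM, with 4 of 11 called up. Schwann cell and nerve genes summed to 464 and 376 CPM, with 2 of 7 called up. Epithelial genes had 246 and 35 counts in all, with 3 of 5 with reads called up, and erythroid genes 46 and 8, with 1 of 5 called up. The lower values of PRKACB, ADCY5, PDE4B, PRKX and ADCY4 in steers stood beside lower sums of immune and muscle genes. ADCY6, higher in steers, stood beside the higher fibroblast and matrix sum. The skeletal muscle list was itself split, with 6 of 14 genes above 0. Its calls were MYH1 at 1.15, MYH7 at -2.23 and TNNT1 at -2.01. On the median-of-ratios scaling used for the members, the myeloid sum was at -1.47 and the skeletal muscle sum at -0.56. Adipocyte and endothelial sums were lower in steers in CPM, but on that scaling they were level, at 0.01 and 0.02. Single adipocyte genes went both ways, and the part of these cell types in the members' values was not tested.

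**Figure D5:**
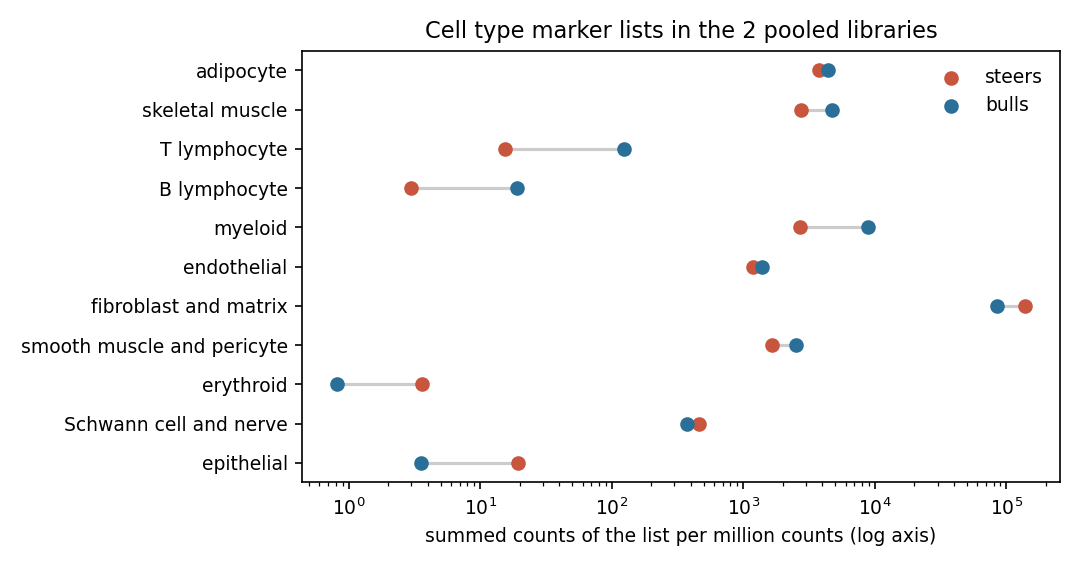
Summed CPM (horizontal log axis) of 11 cell type marker lists in steers (red) and bulls (blue), with a grey line joining the libraries. The adipocyte and endothelial sums lie close together, the T lymphocyte, B lymphocyte and myeloid sums are higher in bulls, and the matrix sum is higher in steers.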

How the data were processed

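The authors pooled RNA of each group, sequenced it on an Ion Proton, removed adaptors and low-quality reads and aligned the rest to a bovine genome with MapSplice. The submitters' processing notes also name BWA, which the authors used for the small RNA reads, and the human build GRCh37.p13, whose role is not given. The counting program, its use of strand and its treatment of reads that match related genes are not given in the sources used here. The authors deposited raw read counts for each gene, with totals of 12677375 in steers and 9868415 in bulls. Small RNA counts were not used here.

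Samples were grouped by their titles. Median-of-ratios factors were computed in numpy 2.4.6. The libraries were compared gene by gene in scipy 1.17.1 (two-sided exact binomial test), p-values being adjusted by Benjamini-Hochberg over 17752 genes. A call required an adjusted p under 0.05 together with a log2 fold change beyond 1 in either direction. EBSeq, the tool of the study, was not used. Fold change intervals are 95% Clopper-Pearson intervals, and ratios of ratios have exact conditional intervals. List medians used a prior of 0.5 counts. The test was tested on simulated data. Alternatives were other scalings, edgeR 4.0.16 TMM factors under R 4.3.3 among them, a minimum of 10 counts, a prior of 5 counts, no fold threshold and edgeR exact tests with assumed variation between pools.

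The members and lists were chosen with earlier results of these data known. Named in the text are the 10 members and, per pathway list, the called genes up to the 4 with the largest change among those with at least 10 counts, and the gene with the most counts. ADRB3, CALCRL, RAMP1, GNAI2, PDE4A, SIK2, CREBBP, CREM, ATF1, FOS, LIPE and PLIN1 were added for their roles after their values had been seen. Symbols were looked up in a RefSeq gene table (assembly ARS-UCD2.0), which holds all 10 members. One gene of the receptor list is not reported here.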

Additional observations from a re-analysis of the deposited data

How the results depend on the processing

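PRKACB kept a log2 fold change below 0 and its call under every scaling and under the minimum of 10 counts, and lost the call with an assumed biological coefficient of variation of 0.2 or 0.4 between pools, where its log2 fold change stays -1.10 by construction and its adjusted p in edgeR's exact test was 0.202 and 1. ADCY5 crossed the threshold with total counts (-1.24), total counts without the 10 genes with the most counts (-1.14), a minimum of 10 counts (-1.01) and TMM factors (-1.02). PDE4B crossed it with total counts (-1.16) and without those 10 genes (-1.06). PRKAR1A turned to -0.11 and -0.014 under the same 2 scalings, and PRKAR2A to 0.0038 with the upper quartile. The number of members called down, 1 as reported, was 3 with total counts and without the 10 genes with the most counts, 2 with a minimum of 10 counts and with TMM factors, and 0 with an assumed coefficient of 0.2 or 0.4. Of all 17752 genes, 2089 were called down with total counts, 1826 without those 10 genes and 1537 with TMM factors. With a minimum of 10 counts, 1460 of 14540 genes were called down. With the adjusted p alone the number of members called down was 4 (18.9% of all genes) and the number called up was 3 (20.4% of all genes), shares that are not matched to the members in depth. The median of the members was -0.36, and it was -0.60 with total counts and -0.50 without the 10 genes with the most counts. Of the other 83 values recomputed for the members, the log2 fold changes kept their direction and stayed called or not called as reported. The counts and medians among them lay close to the reported value. With an assumed coefficient the direction was kept by construction. Some genes crossed the p threshold alone. With total counts the adjusted p in the exact binomial test went from 5.36e-05 to 0.546 for PRKACA. For PRKAR2B it went from 0.106 to 0.0053 and for CREB1 from 0.0834 to 0.00926. With TMM factors that of PRKAR1A went from 0.0313 to 0.0736.

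Over all genes the calls were 827 up and 1509 down, so that 35.4% were up, and 586 and 2089 with total counts, or 21.9% up. An assumed coefficient of 0.2 left 368 up and 762 down, and one of 0.4 left 52 and 93. Of the counts of calls in the pathway lists, 18 of 52 moved by over 1.5 times or to or from 0 with total counts or an assumed coefficient of 0.2. In those counts, both PDE7B and PDE10A lost their calls with total counts. No paired analysis was possible because each group has 1 mRNA library, and for the same reason none was left out. PRKACB, PRKAR2B and CREB1 had at most 128 counts per library, which sets the width of their intervals.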
